A study of Mus musculus with 6 samples.

Results

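The genes St14, Prss8, Prss22, Tmprss2, Tmprss4, Tmprss13, Hpn, Spint1 and Spint2 encode 7 trypsin-like serine proteases of epithelia, most of them tethered to the plasma membrane, and 2 membrane inhibitors of such proteases. They were taken by symbol from the table, and all 9 were found among its 23478 genes. RNA had been sequenced from cells sorted from the mouse trachea at embryonic day 13.5, 3 libraries of muscle cells collected by eGFP and 3 of epithelial cells collected by an antibody to Epcam. Both groups came from embryos of the genotype Bmp4 f/f; gamma SMA eGFP, are titled controls and received no treatment other than TrypLE dissociation for 15 minutes. The reporter marks cells by gamma smooth muscle actin, and no Cre driver is named in the labels. The labels do not say whether libraries came from separate embryos or from pools, so p-values measure the spread between these libraries, which may be technical.

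Trypsin-like proteases are made as inactive zymogens and are switched on by a cut after a basic residue, often made by another protease of the same kind. Matriptase (St14) and prostasin (Prss8) form the best known pair on epithelial cells, where they act on cell adhesion, barrier formation and the epithelial sodium channel. The Kunitz-domain inhibitors HAI-1 (Spint1) and HAI-2 (Spint2) were first known as inhibitors of the activator of hepatocyte growth factor, and they also restrain matriptase and prostasin. Loss of the inhibitors is known to harm epithelia of the embryo through unchecked protease activity.

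The proteases share a conserved motif around the active-site serine, the residue that attacks the substrate. Each principal GENCODE transcript of the 7 protease genes held 1 match. The stretches of 7 codons around it are shown because they mark these genes as catalytic proteases and separate them into groups by serine codon. They are written 5′ to 3′ on the coding strand with the serine codon in capitals, and in all 7 genes the stretch is split between consecutive exons.
St14: cagggtgacTCTggtggcccc
Prss8: cagggtgacTCTgggggccca
Prss22: ctgggcgacTCTgggggtccc
Tmprss2: cagggagacAGTggagggccg
Tmprss4: cagggtgacAGTggtgggcct
Tmprss13: cagggagacAGTggaggacct
Hpn: cagggcgacAGTggaggcccc
The serine was encoded by TCT in St14, Prss8 and Prss22 and by AGT in the other 4 genes, codons that cannot be turned into each other by a single base change. On GRCm38, the assembly also named mm10, the stretch lies at chr9:31090010-31090404 on the minus strand in St14 (exons 18 and 19, serine at codon 805) and at chr7:127926623-127926747 on the minus strand in Prss8 (exons 5 and 6, codon 238). It lies at chr16:97567158-97567598 on the minus strand in Tmprss2 (exons 12 and 13, codon 439) and at chr7:31099362-31099508 on the minus strand in Hpn (exons 11 and 12, codon 352). In Prss22 it lies at chr17:23994027-23994601 on the minus strand (exons 5 and 6, codon 242). The stretches of Tmprss4 at chr9:45173990-45175104 on the minus strand (exons 11 and 12, codon 385) and of Tmprss13 at chr9:45345054-45345243 on the plus strand (exons 11 and 12, codon 492) belong to genes that lie close together on chromosome 9.

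Spint1 and Spint2 each held 2 matches to the Kunitz signature, a stretch of 19 codons around conserved cysteines, and no match to the protease motif. The Kunitz domain is the part of each inhibitor that blocks a protease, so these stretches are shown with the cysteine codons in capitals.
Spint1 domain 1: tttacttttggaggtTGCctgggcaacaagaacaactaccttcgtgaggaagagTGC
Spint1 domain 2: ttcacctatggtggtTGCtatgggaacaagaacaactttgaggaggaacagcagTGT
Spint2 domain 1: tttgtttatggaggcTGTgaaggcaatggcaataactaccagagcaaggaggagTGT
Spint2 domain 2: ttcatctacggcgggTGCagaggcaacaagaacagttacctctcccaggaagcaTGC
Between the 4 stretches, 54.4% to 66.7% of the 57 bases were identical. In Spint1 they lie at chr2:119245826-119245882 (exon 4) and chr2:119248100-119248156 (exon 8) on the plus strand. In Spint2 they lie at chr7:29263620-29263676 (exon 2) and chr7:29258443-29258499 (exon 5) on the minus strand.

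The libraries held 11847432 to 54848820 counts. Muscle replicate 2 and epithelium replicates 2 and 3 stood apart by counts on genes not known from trachea. Of 1449 olfactory and vomeronasal receptor genes, 73.4% to 78.8% had counts in these 3 libraries, against 2.90% to 17.4% in the other 3. Such counts are called background counts here. The smooth muscle markers summed to 4120 to 18310 CPM (counts scaled to a common library size) in muscle and 38.4 to 101.6 in epithelium, with the lowest muscle sum in replicate 2. The 10 epithelial markers summed to 3549 to 4729 CPM in epithelium and 13.7 to 28.5 in muscle. All 8 and all 10 markers were called in the direction of their tissue (edgeR, below). Of the markers of other cells, none of the tested genes of endothelium, immune cells, mast cells, red blood cells, neural cells or hepatocytes was called. At an unadjusted p under 0.05, 1 endothelial gene was higher in muscle, and 1 mast cell gene and 1 neural gene were higher in epithelium. The 4 globin genes were at 0 in every library. Called higher in epithelium were 1 of 5 mesothelial markers, Krt7, and 2 of 5 tested markers of oesophageal and squamous epithelium, Trp63 and Krt15. In epithelium the mesothelial markers other than Krt7 had means of at most 3.47 CPM. Trp63 and Krt15 had means of 59.2 and 44.6 CPM there, and the other oesophageal and squamous markers at most 8.46. The oesophageal and squamous list summed to 64.4 to 167 CPM in epithelium and 1.74 to 8.24 in muscle. Trp63 and Krt15 made up most of its sum in each epithelial library. These 2 genes alone do not identify oesophageal cells, and a part of such cells in the levels below was not tested.

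Of the 9 genes, 7 were higher in epithelium and none was higher in muscle. The test was edgeR's quasi-likelihood test at an adjusted p under 0.05, in which all 9 genes passed the filter on low counts. Of all 19375 tested genes, 4.11% were called higher in epithelium by the same rule. In all 7 the epithelial libraries were above every muscle library, an order found in 10.5% of tested genes. The 7 genes were St14, Prss8, Prss22, Tmprss2, Hpn, Spint1 and Spint2, and their log2 fold changes (epithelium over muscle) ran from 4.85 to 7.54. Calls toward epithelium whose log2 fold change reached 3 made up 1.39% of tested genes. As the 9 genes were chosen with earlier results of these data known, comparisons with all tested genes are descriptions. The median log2 fold change was 6.09 over the 9 genes and 0.10 over all tested genes. Scaling by library size alone moved the latter to 0.33 and the share of calls that were higher in epithelium from 38.5% to 58.0%, and all 7 calls were made under it as well. In these bulk libraries fewer expressing cells and less RNA per cell cannot be told apart.

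**Figure D1:**
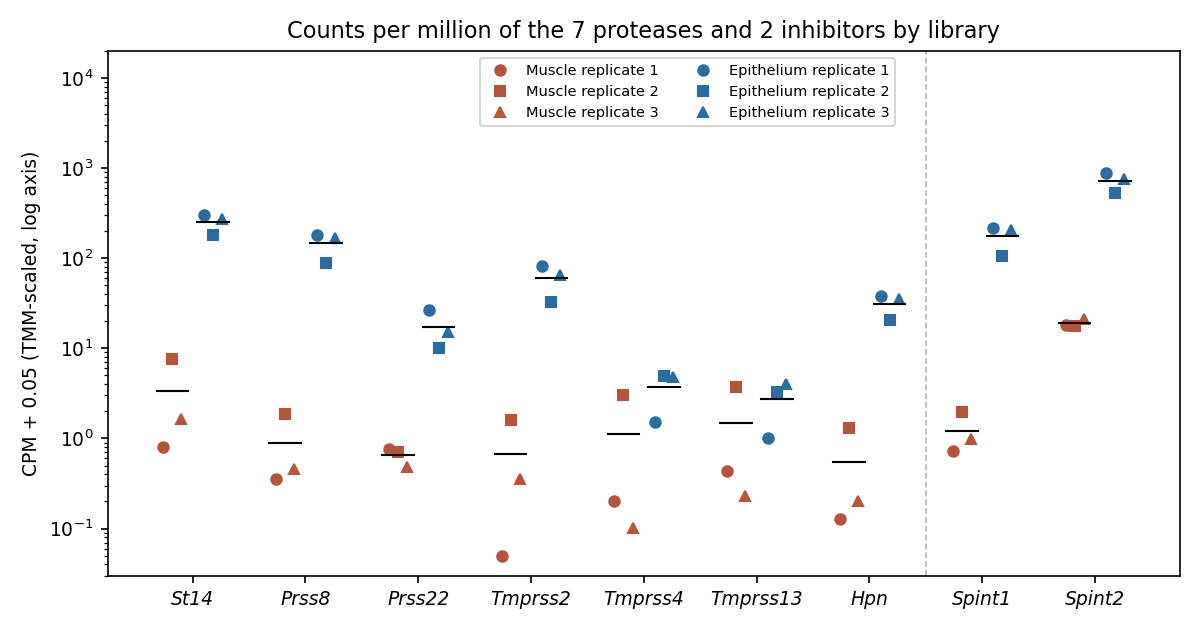
CPM of each gene in each library (log axis, 0.05 CPM added so that a value of 0 can be drawn). Circles, squares and triangles are replicates 1, 2 and 3, red is muscle, blue is epithelium, and black lines are group means. For 7 genes all epithelial libraries lie above all muscle libraries, while the groups overlap for Tmprss4 and Tmprss13.

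St14 encodes matriptase, a transmembrane protease that activates other zymogens at the cell surface. It had 0.760, 7.59 and 1.59 CPM in muscle replicates 1 to 3, against 302, 182 and 268 CPM in epithelium replicates 1 to 3. The groups did not overlap, and muscle replicate 2 held most of the St14 counts seen in muscle. The group means of 3.31 ± 3.73 CPM in muscle (SD, n = 3) and 251 ± 61.9 CPM in epithelium differed by 6.28 ± 0.83 on the log2 scale (SE, edgeR, adjusted p = 0.00197). Among all tested genes ordered by fold change toward epithelium, St14 ranked 55.

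Prss8 encodes prostasin, which is held in the membrane by a lipid anchor. Its levels were 0.304, 1.80 and 0.404 CPM in muscle replicates 1 to 3, against 183, 88.4 and 167 CPM in epithelium replicates 1 to 3. Every epithelial library was far above every muscle library, and epithelium replicate 2 was the lowest of its group. Mean levels were 0.835 ± 0.835 CPM (muscle) and 146 ± 50.7 CPM (epithelium, SD, n = 3 each). Prss8 had the largest fold change of the 9 genes, at 7.54 ± 0.71 (log2, SE, edgeR, adjusted p = 0.000468). It ranked 20 of all tested genes toward epithelium. Prss8 shares 122 exonic bases (6.59% of its exons) with Kat8 on the opposite strand, and these reads cannot be told apart without strand. Kat8 had 1277, 528 and 1505 counts in the muscle libraries, in which Prss8 had 8, 36 and 16.

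Prss22 encodes a tryptase-like protease that is secreted and is known from airway epithelium. Muscle replicates 1 to 3 had 0.722, 0.649 and 0.430 CPM, and epithelium replicates 1 to 3 had 26.7, 9.96 and 15.1 CPM. Epithelium replicate 1 held more than the other epithelial libraries, and the groups did not overlap. Among the 7 genes called it had the smallest difference, 4.85 ± 0.585 on the log2 scale (SE, edgeR, adjusted p = 0.00123).

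Tmprss2, a transmembrane protease known for activating the entry proteins of respiratory viruses, had 0, 1.55 and 0.303 CPM in muscle replicates 1 to 3. In epithelium replicates 1 to 3 it had 81.2, 32.5 and 65.2 CPM. The library at 0 held no Tmprss2 count among 31380201, which allows up to 0.0956 CPM by 3 counts. The groups did not overlap, and edgeR gave a log2 fold change of 6.71 ± 1.01 (SE, adjusted p = 0.00366). With the background counts as a covariate the value was 6.76 and did not pass (adjusted p = 0.0593).

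Hpn encodes hepsin, a transmembrane protease best known from liver. It was at 0.0760, 1.25 and 0.152 CPM in muscle replicates 1 to 3, against 38.0, 20.7 and 35.3 CPM in epithelium replicates 1 to 3. All epithelial libraries were above all muscle libraries, with a difference of 6.09 ± 0.92 on the log2 scale (SE, edgeR, adjusted p = 0.00356). The 6 hepatocyte markers, Alb, Afp, Apoa1, Apoa2, Ttr and Ahsg, summed to 2.22 to 12.2 CPM in muscle and 3.87 to 12.9 in epithelium. None of the 4 that were tested was called (edgeR, 0 at an unadjusted p under 0.05).

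Spint1 and Spint2, the inhibitors, had the smallest SEs of the 9 genes. Spint1 had 0.684, 1.90 and 0.935 CPM in muscle replicates 1 to 3, against 215, 106 and 204 CPM in epithelium replicates 1 to 3. At 7.25 ± 0.51 (log2, SE, edgeR, adjusted p = 0.000116), its fold change followed that of Prss8 among the 9 genes. Spint2 had 18.2, 17.8 and 21.3 CPM in muscle replicates 1 to 3, against 873, 529.9 and 754 CPM in epithelium replicates 1 to 3. It was the most abundant of the 9 genes by CPM in both tissues, and its muscle libraries were close to each other. Mean levels were 19.1 ± 1.90 CPM (muscle) and 719 ± 174 CPM (epithelium, SD, n = 3 each), and edgeR gave 5.23 ± 0.31 as the log2 fold change (SE, adjusted p = 9.61e-05).

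Tmprss4 and Tmprss13, transmembrane proteases of the same family, were low in both tissues. Tmprss4 had 0.152, 3.00 and 0.0506 CPM in muscle replicates 1 to 3, against 1.49, 4.88 and 4.73 CPM in epithelium replicates 1 to 3. Muscle replicate 2 was above epithelium replicate 1, so the groups overlapped, and the log2 difference of 1.80 ± 1.61 (SE) missed the threshold (edgeR, adjusted p = 0.707). Tmprss13 had 0.380, 3.69 and 0.177 CPM in muscle and 0.948, 3.21 and 3.98 CPM in epithelium, in the same order of replicates. These groups overlapped as well, with a log2 difference of 0.94 ± 1.51 (SE, edgeR, adjusted p = 0.894). For both genes the 3 highest libraries were the 3 with the most background counts.

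The levels of Tmprss4 and Tmprss13 were set beside those of the receptor genes of each library. In epithelium replicate 2, 33 of the 1449 receptor genes had at least as many counts as Tmprss4 (73 counts) and 89 at least as many as Tmprss13 (48 counts). In muscle replicate 2, 21 and 11 receptor genes did. In epithelium replicate 1, the library with the fewest background counts, Tmprss4 had 80 counts and Tmprss13 had 51, and 0 and 1 receptor genes reached them. Among the 3 libraries with few background counts, epithelium replicate 1 was 14.7-fold above the mean of muscle replicates 1 and 3 for Tmprss4 and 3.40-fold for Tmprss13. A fit of these 3 libraries, chosen after seeing the data and with a single epithelial library assumed to vary as the muscle libraries do, gave log2 fold changes of 4.07 (adjusted p = 0.0981, edgeR) and 1.95 (adjusted p = 0.373). In replicates 2 alone the log2 ratio of epithelium to muscle was 0.70 for Tmprss4 and -0.20 for Tmprss13. In GENCODE, 412 exonic bases of Tmprss4 (15.9%) overlap the antisense gene Gm17099 and 56 of Tmprss13 overlap 1700003G13Rik, so part of these counts may belong to the other strand.

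**Figure D2:**
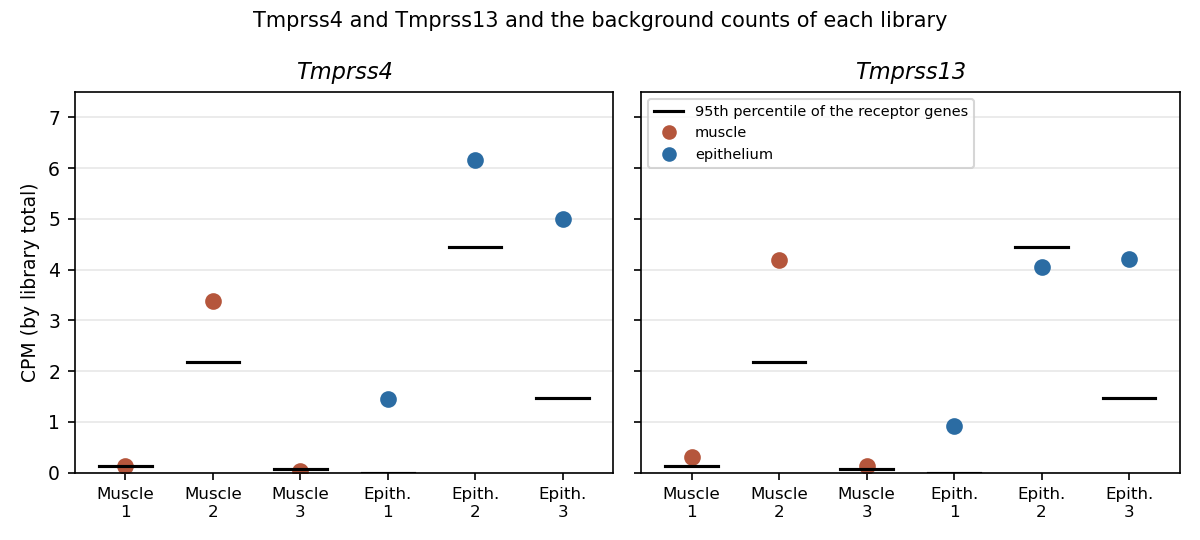
Tmprss4 (left) and Tmprss13 (right) in CPM by library total, 1 point per library, with muscle in red and epithelium in blue. Black lines mark the 95th percentile of the 1449 receptor genes in the same library, which is 0 in epithelium replicate 1. In epithelium replicate 2 Tmprss13 lies under that line.

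The 7 calls were all kept in each of the 6 fits that left out a library. Leaving out muscle replicate 2 raised the log2 fold changes of St14 to 7.69, Prss8 to 8.64, Tmprss2 to 8.39, Hpn to 7.99 and Spint1 to 7.72. Leaving out muscle replicate 1 gave the lowest values for these genes, with 5.79, 7.14, 6.10, 5.58 and 6.98. Prss22 stayed between 4.36 and 5.20 and Spint2 between 5.05 and 5.47. In the 3 libraries with few background counts the 7 calls also passed, with log2 fold changes from 5.65 (Spint2) to 9.16 (Prss8). The header has a date row with the same date for all 6 libraries. A separate row of identifiers holds numbers that can be read as days, which the header does not state, and these set both replicates 2 apart from the other 4 libraries. The other 4 libraries alone gave all 7 calls, with log2 fold changes of 5.27 (Prss22) to 8.98 (Prss8). Replicates 2 are 1 library per tissue and allow no test, with log2 ratios of 3.94 (Prss22) to 5.80 (Spint1).

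**Figure D3:**
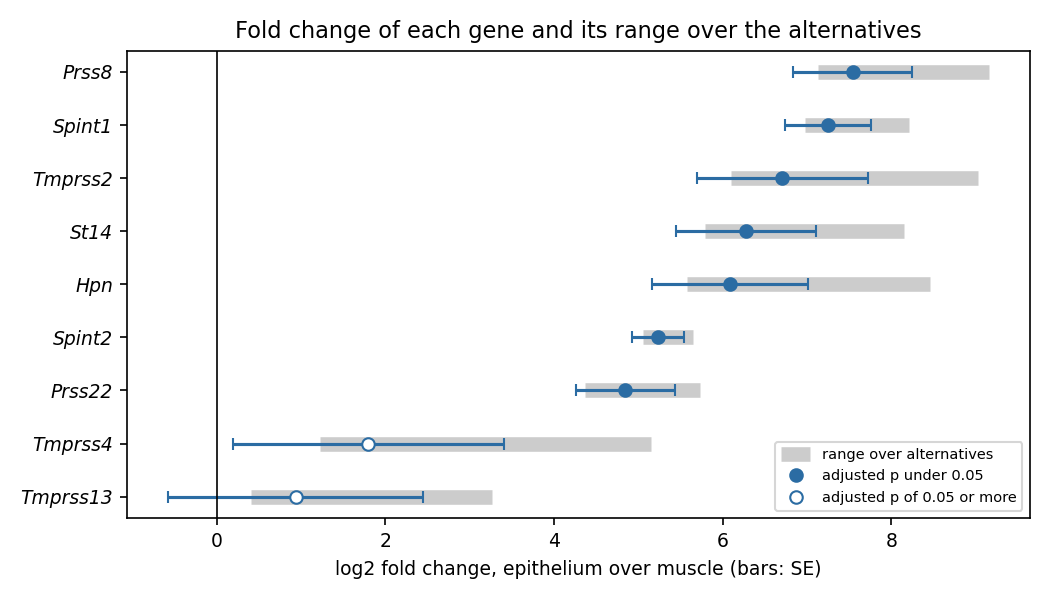
Log2 fold change of each gene, epithelium over muscle, from the fit of all 6 libraries. Points are estimates with SE bars, filled where the adjusted p was under 0.05, and grey bands span the values over the alternatives tried. The bands of all 9 genes stay above 0, from 0.41 at the lowest for Tmprss13 to 9.16 at the highest for Prss8.

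Traces of these genes in muscle were compared with those of the epithelial markers. The 7 called genes stood at a median of 0.30%, 2.60% and 0.53% of their epithelial mean in muscle replicates 1 to 3. The 10 epithelial markers stood at 0.14%, 0.74% and 0.52%. Muscle replicate 2 thus had the highest median of both sets. Spint2 and Prss22 were not highest in replicate 2. Spint2 stood at 2.53%, 2.48% and 2.96% in the 3 muscle libraries, and Prss22 at 4.18%, 3.76% and 2.49%. The marker Krt18, a keratin of simple epithelium, reached 1.53%, 1.51% and 2.23%. Muscle replicate 2 was also a library with many background counts. In it, 429 of the 1449 receptor genes had at least as many counts as Prss22, 193 as Hpn and 133 as Tmprss2. For Prss8 and Spint1, 97 and 85 did, and for St14 and Spint2, 0 did. The part of background counts in these levels was not tested. The part of epithelial cells or RNA carried over into the muscle libraries was not tested either.

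The epithelial libraries differed among themselves in a common direction. All 7 called genes were lowest in epithelium replicate 2, at 37.3% (Prss22) to 60.7% (Spint2) of their level in replicate 1. In replicate 3 they were at 56.6% (Prss22) to 95.3% (Spint1). The 10 epithelial markers in replicate 2 ranged from 45.4% (Foxa2) to 254% (Krt19) of replicate 1 with a median of 75.1%, and Epcam was at 76.5%. Replicate 2 was also the shallowest library and had the most background counts. The part of either in the lower levels was not tested.

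Levels of different genes were compared within epithelium as CPM per kilobase of the principal transcript. Spint2 was the highest, at 519 ± 126 CPM per kb (SD, n = 3). It was followed by Prss8 at 79.0 ± 27.4, St14 at 77.0 ± 19.0 and Spint1 at 75.3 ± 25.9, which changed places between libraries and cannot be ordered. Tmprss2 at 18.9 ± 7.84, Hpn at 17.8 ± 5.27 and Prss22 at 13.0 ± 6.49 formed a lower set with overlapping ranges. Tmprss4 and Tmprss13 came last, at 1.62 ± 0.839 and 0.836 ± 0.486. The steps from Spint2 to Prss8 (log2 ratio 2.76 ± 0.22, SD of 3 libraries) and from Spint1 to Tmprss2 (2.03 ± 0.16) were present in each epithelial library without overlap. With the union of all annotated exons as length, an alternative chosen after seeing the data, Spint2 and Prss8 kept ranks 1 and 2, Spint1 moved above St14 and Prss22 above Tmprss2 and Hpn. The step from Spint2 to Prss8 was then 1.04 ± 0.22 and that from Spint1 to Tmprss2 2.98 ± 0.16, so the sizes of these steps depend on the length used.

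**Figure D4:**
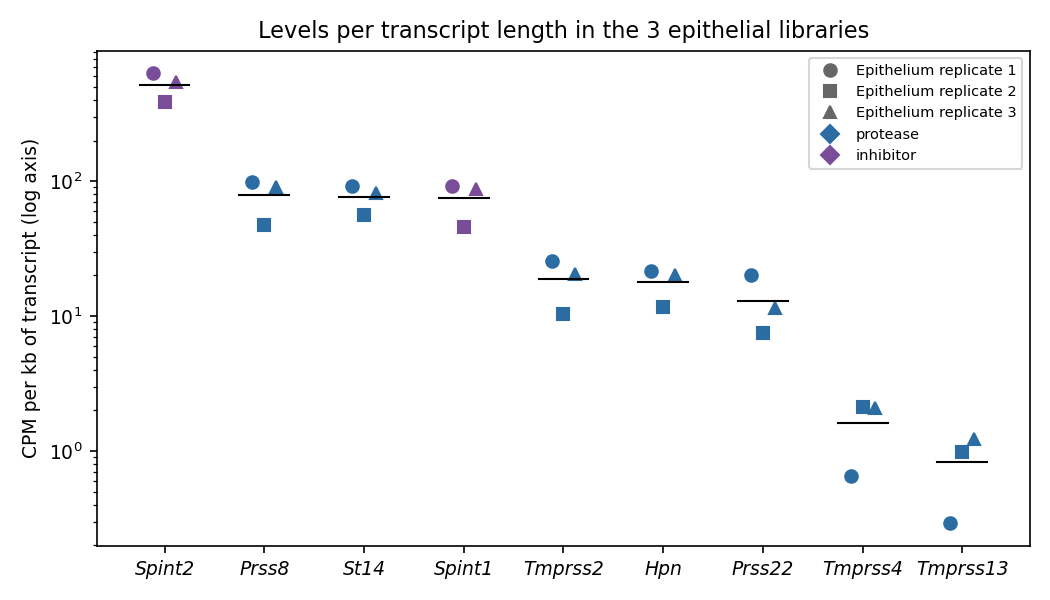
CPM per kilobase of principal transcript in the 3 epithelial libraries (log axis), with genes ordered by their mean, which is drawn as a black line. Blue points are proteases, purple points are inhibitors, and the shape gives the replicate. Spint2 stands at 383 to 631, above all other genes, and Prss8, St14 and Spint1 overlap between 45.4 and 98.7.

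Per kilobase of the principal transcript, the inhibitors together outnumbered the proteases in each epithelial library. The summed level of Spint1 and Spint2 was 2.78, 3.14 and 2.77 times that of the 7 proteases in epithelium replicates 1 to 3. St14 and Prss8 made up 73.7%, 76.0% and 75.7% of the protease sum. Spint1 was at 0.997, 0.813 and 1.07 times the level of St14, and Spint2 at 6.83, 8.43 and 6.19 times that of Spint1. With exon-union lengths the inhibitors were at 1.497, 1.69 and 1.52 times the proteases, Spint1 at 1.96, 1.60 and 2.10 times St14, and Spint2 at 2.47, 3.05 and 2.24 times Spint1. The excess of the inhibitors and of Spint2 over Spint1 was thus present with both lengths at different sizes, and the order of Spint1 and St14 depends on the length. These proportions varied less between the libraries than the levels themselves, and they describe RNA.

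RefSeq promoter sequences (GRCm38.p6) were matched by symbol for Spint1, Spint2, Tmprss2 and Hpn, and the 250 bases before the start were searched on both strands. The motifs were CCGCCC, a GC box bound by Sp and Kruppel-like factors, AACNNGTT, the core bound by grainyhead factors, TGTTTAC, a forkhead motif, and TATAAA, the TATA box. CCGCCC was found 3 times in Spint1, 3 times in Spint2, 2 times upstream of the first Hpn start and not in Tmprss2. It is present in 32.7% of the 32851 RefSeq promoter windows of that length. AACNNGTT (3.64% of windows), TGTTTAC (3.17%) and TATAAA (12.4%) had no match in these 4 genes. The upstream stretches of the inhibitors are shown because both are rich in G and C (72.8% in Spint1, 69.6% in Spint2), hold 26 and 24 CpG dinucleotides and share the GC boxes, given in capitals on either strand.
Spint1: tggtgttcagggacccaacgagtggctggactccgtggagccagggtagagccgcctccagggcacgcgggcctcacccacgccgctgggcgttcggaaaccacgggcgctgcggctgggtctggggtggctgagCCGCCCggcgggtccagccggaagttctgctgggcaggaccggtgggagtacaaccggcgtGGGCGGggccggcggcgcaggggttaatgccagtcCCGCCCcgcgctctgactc
Spint2: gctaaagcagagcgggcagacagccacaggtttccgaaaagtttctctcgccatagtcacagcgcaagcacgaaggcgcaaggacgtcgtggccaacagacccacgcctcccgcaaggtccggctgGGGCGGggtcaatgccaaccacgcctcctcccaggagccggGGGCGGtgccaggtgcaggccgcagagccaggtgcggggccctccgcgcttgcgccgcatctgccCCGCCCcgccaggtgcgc
The Spint1 stretch is chr2:119237110-119237359 on the plus strand and the Spint2 stretch chr7:29281978-29282227 on the minus strand, both ending at the base before the start. A match is a description of the letters and not evidence of binding.

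The other genes of the same pathway were taken from 6 lists. Of 14 tested type II transmembrane serine proteases outside the 9 genes, 0 were called in either direction (edgeR). Of all tested genes, 4.11% were called toward epithelium and 6.58% toward muscle, shares at which 14 genes would hold few calls. At an unadjusted p under 0.05, 0 of the 14 were higher in epithelium and 1 in muscle. DESeq2 called 0 in both directions and limma-voom 1 toward muscle, Corin, the protease that processes natriuretic peptide precursors, named after its values were seen. Corin had 14.4, 12.4 and 16.1 CPM in muscle replicates 1 to 3, against 1.13, 6.08 and 6.20 in epithelium replicates 1 to 3 (log2 fold change -1.68, adjusted p = 0.140 in edgeR and 0.0122 in limma-voom). The median log2 fold change of the list was 0.57, against 6.09 for the 9 genes, which were chosen with earlier results of these data known. Its 14 genes other than Corin had group means of at most 3.79 CPM. Each was highest in the 3 libraries with the most background counts. Tmprss11e, for example, had 0, 129 and 73 counts in epithelium replicates 1 to 3 and 11, 96 and 16 in muscle replicates 1 to 3. The part of background counts in the median of the list was not tested.

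Of 29 tested genes listed as other tethered or secreted trypsin-like proteases, 3 were higher in muscle (edgeR), where 6.58% of all tested genes were called. Toward epithelium 0 were called (edgeR, 0 at an unadjusted p under 0.05), against 4.11% of all tested genes. The number toward epithelium was 0 by limma-voom and 1 by DESeq2. The DESeq2 call was Prss16, a thymus-associated protease (log2 fold change 2.28, adjusted p = 0.0216 in DESeq2, and 2.21, adjusted p = 0.312 in edgeR), named after its value was seen. Genes of this list were taken by symbol, and their sequences were not searched for the active-site serine motif. The name of the list is therefore not established for each of its genes, Prss16 and Prss35 among them. Prss35 had 335, 573 and 485 CPM in muscle and 18.7, 73.6 and 24.1 in epithelium, in the order of replicates. The difference was -3.59 on the log2 scale (edgeR, adjusted p = 0.00354). Plat, the tissue plasminogen activator, had 236, 176 and 239 CPM in muscle and 51.6, 46.9 and 35.6 in epithelium (-2.28, adjusted p = 0.0010, edgeR). Prss12, a secreted protease also made by neurons, followed with -2.21 (adjusted p = 0.0333, edgeR). It lost its call without muscle replicate 2 (adjusted p = 0.0635), muscle replicate 3 (0.0542) or epithelium replicate 3 (0.144), and also with RLE size factors (0.0736), with library size only (0.131) and when only genes averaging 2 or more in log2 CPM were tested (0.0782).

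In the fit of all 6 libraries, every called gene among the other Kunitz-type genes and the serpins was higher in muscle. Of all tested genes, 6.58% were called in that direction and 4.11% toward epithelium. Not all genes of these families inhibit proteases, among them Serpinh1 below. Among 11 other Kunitz-type genes, 2 were called toward muscle and 0 toward epithelium (edgeR, 0 at an unadjusted p under 0.05, 0 by DESeq2 and by limma-voom). Tfpi, the inhibitor of tissue factor, had 81.9, 59.6 and 80.4 CPM in muscle and 2.53, 12.6 and 2.93 in epithelium (log2 fold change -3.65, adjusted p = 0.00567, edgeR). Col6a3, a collagen with a Kunitz domain, had -3.79 (adjusted p = 0.0143, edgeR). The count fell to 1 without muscle replicate 1 or 3 or epithelium replicate 3, when Col6a3 lost its call (adjusted p of 0.0517, 0.0602 and 0.0694), and to 1 with the background counts as a covariate (0.0611).

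Among 21 serpins, 5 were called toward muscle and 0 toward epithelium (edgeR, 0 at an unadjusted p under 0.05, 0 by DESeq2 and by limma-voom). Serpine2, protease nexin, which inhibits several trypsin-like proteases, had 945, 581 and 854 CPM in muscle replicates 1 to 3, against 203, 81.0 and 122 in epithelium replicates 1 to 3. The groups did not overlap and differed by -2.55 on the log2 scale (edgeR, adjusted p = 0.00332). Serping1, the inhibitor of complement C1 (-2.46, adjusted p = 0.0010, edgeR), and Serpinh1, a collagen chaperone that does not inhibit proteases (-1.63, adjusted p = 0.0048), were also higher in muscle. The count was 3 when muscle replicate 3 was left out, and likewise for epithelium replicate 1 and for epithelium replicate 3. The 3 serpins named here kept their calls in each of those fits.

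**Figure D5:**
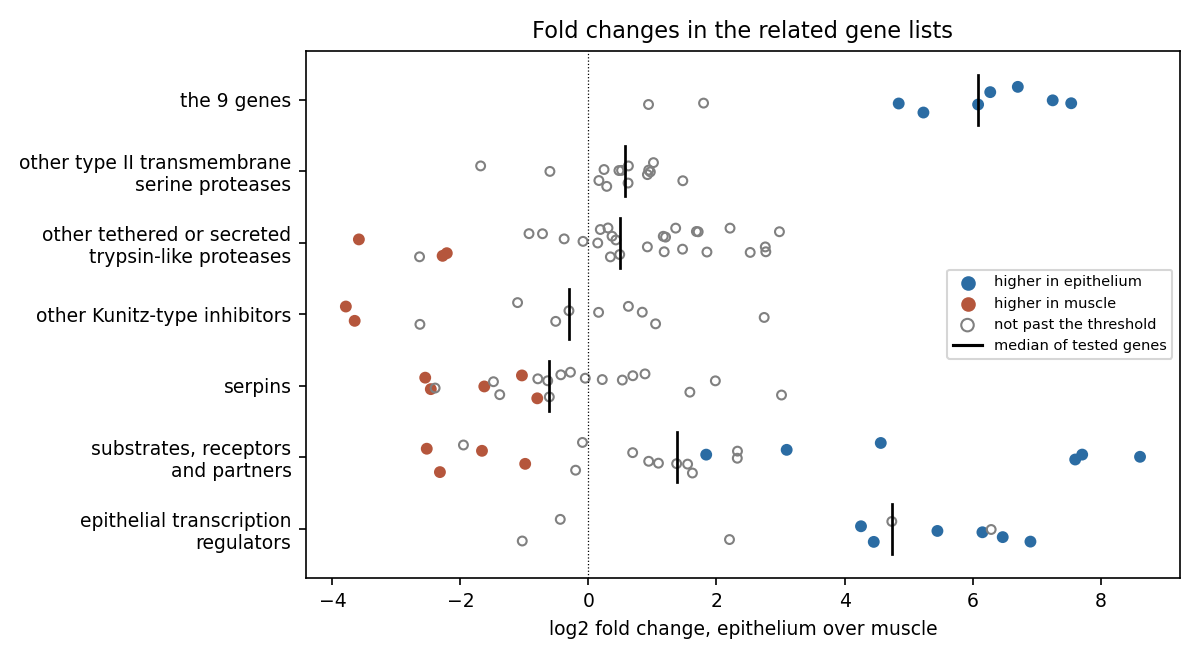
Log2 fold change, epithelium over muscle, of every tested gene of the 9 and of the 6 related lists. Filled blue and red points passed the threshold toward epithelium and muscle, open points did not, and black bars are medians over the tested genes of a list. The 9 genes and the transcription regulators lie mostly to the right, and the called genes of the other protease and inhibitor lists lie to the left.

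Substrates, receptors and partners of the membrane proteases were divided. Of 21 genes tested, 6 were higher in epithelium and 4 in muscle (edgeR), against 4.11% and 6.58% of all tested genes. Epcam, the adhesion protein used for sorting and a known target of matriptase, had 0.646, 2.20 and 1.74 CPM in muscle replicates 1 to 3, against 710.1, 543 and 541 in epithelium replicates 1 to 3 (log2 fold change 8.62, adjusted p = 9.61e-05, edgeR). As the sort used its protein, its difference is a check of the sort. Cldn7, a claudin that forms a complex with Epcam, had 7.60 (adjusted p = 9.61e-05, edgeR). Both genes stood above the median of the 9 genes in log2 fold change.

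Receptors for growth factors that these proteases can activate went in different directions. Met, the receptor of hepatocyte growth factor, had 8.40, 10.3 and 8.92 CPM in muscle and 36.1, 34.4 and 28.3 in epithelium, and was higher in epithelium (log2 fold change 1.84, adjusted p = 0.00197, edgeR). Its ligand Hgf had 13.6, 9.59 and 14.2 CPM in muscle and 0.576, 7.02 and 2.14 in epithelium. Although the groups of Hgf were apart, the difference of -1.95 on the log2 scale missed the threshold (edgeR, adjusted p = 0.199). Without epithelium replicate 2 it was -3.20 and passed (adjusted p = 0.0192, edgeR). In all, Hgf passed in 5 of the 19 alternatives, over which its log2 fold change ran from -4.40 to -1.475.

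Mst1r, the receptor of the related macrophage-stimulating protein, was higher in muscle, with 27.5, 17.97 and 24.3 CPM in muscle and 1.34, 7.55 and 3.38 in epithelium. The difference was -2.53 on the log2 scale (edgeR, adjusted p = 0.0247), and the call was lost with library size only (adjusted p = 0.0879), when only genes averaging 2 or more in log2 CPM were tested (0.0523) and without muscle replicate 1 (0.0713), muscle replicate 3 (0.0591) or epithelium replicate 3 (0.106). Plaur, the urokinase receptor (-2.32, adjusted p = 0.0157, edgeR), and Egfr, the receptor of epidermal growth factor (-1.66, adjusted p = 0.00153), were also higher in muscle. Plaur lost its call with library size only (0.0565) and without muscle replicate 1 (0.0693), muscle replicate 3 (0.0996) or epithelium replicate 3 (0.0634), and without each of these libraries the list held 1 call toward muscle.

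F2rl1, the protease-activated receptor that matriptase can cleave, had 0, 3.99 and 0.859 CPM in muscle and 6.30, 3.48 and 5.15 in epithelium, with overlapping groups (log2 fold change 1.62, adjusted p = 0.737, edgeR). The overlap came from muscle replicate 2 alone, a library with many background counts. Over 18 alternatives the log2 fold change of F2rl1 ran from 1.035 to 3.99, and it was not called in any. The genes of the epithelial sodium channel, named after their values were seen, were low. Scnn1a, the alpha subunit, had 4.70, 8.02 and 7.55 CPM in epithelium (log2 fold change 1.55, adjusted p = 0.381, edgeR). Scnn1b had 4.26, 4.68 and 2.18 CPM (0.69, adjusted p = 0.862), and Scnn1g had 15.0, 9.02 and 9.69 CPM (2.33, adjusted p = 0.155). Muscle libraries held 0.608 to 4.09 CPM of Scnn1a, 1.92 to 2.80 of Scnn1b and 0.228 to 3.84 of Scnn1g, so Scnn1b overlapped between the tissues and the other subunits did not.

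Of 11 epithelial transcription regulators tested, 6 were higher in epithelium (edgeR), against 4.11% of all tested genes. Toward muscle 0 were called (edgeR, 1 at an unadjusted p under 0.05, 0 by DESeq2 and by limma-voom), against 6.58%. Grhl2, a grainyhead factor of epithelial barrier genes, had 0.608, 3.94 and 0.986 CPM in muscle replicates 1 to 3, against 187, 125 and 163 in epithelium replicates 1 to 3 (log2 fold change 6.47, adjusted p = 0.000782, edgeR). Ovol2, a repressor of mesenchymal genes (6.90, adjusted p = 0.0010, edgeR), and Klf5, a Kruppel-like factor of airway epithelium (6.15, adjusted p = 0.000193), were also higher in epithelium. These values lie within the range of the 7 called genes. Like those genes, Grhl2 was lowest in epithelium replicate 2 among the epithelial libraries, whereas Klf5 was highest there.

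The profile of the 9 genes over the 6 libraries, taken as their mean log2 CPM, was compared with that of 9366 other genes whose average log2 CPM was 4 or more. Prkcz, an atypical protein kinase of cell polarity, Grb7, an adaptor of growth factor receptors, Sox2, a transcription factor of the airway epithelium, Mal2, a protein of apical transport, and Misp, an actin-associated protein, were the most similar. Pearson's r was 0.998 to 0.999 over the 6 libraries. A total of 217 genes had an r above 0.95. The libraries fall into 2 tissues, so this is a description of a shared difference between tissues. All 5 genes had their highest muscle level in replicate 2, as did 5 of the 7 called genes.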

How the data were processed

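Muscle (3 libraries) and epithelium (3 libraries), grouped by sample titles and matched to the columns by the tissue row of the header, were compared. The values are the authors' deposited counts, whole numbers per gene symbol. The submitters' processing notes list the build mm10 and the tools Trim Galore, Bowtie2, Cufflinks and DESeq without versions or roles. The counting program, its annotation and its use of strand are not given in the sources used here. Library preparation per the labels' protocols used SMART-Seq v4 and Nextera XT, which carry no molecular identifiers, so counts can include PCR copies, and intervals and floors cover counting error only. Of counts from 1 to 19, 73.8% to 79.6% per library were even, against 49.4% to 50.6% of counts of 100 or more, so 3 counts may stand for fewer read pairs.

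Genes were filtered with filterByExpr by group and scaled by TMM, and epithelium was compared with muscle by edgeR 4.0.16 (R 4.3.3, robust quasi-likelihood test, two-sided, no covariate). P-values were adjusted by Benjamini-Hochberg over all 19375 tested genes, with a threshold of 0.05. SEs derive from the test statistic. The procedure was tested on simulated data. CPM is scaled by TMM unless library totals are named. All symbols of the 7 gene lists and of the marker lists matched, 1 by a RefSeq synonym. Members and lists were chosen with earlier results of these data known. Besides the 9 genes, the text names Epcam, Cldn7, Met, Hgf, F2rl1, Grhl2, up to 3 called genes without overlap per list and direction, those of largest fold change, and the 5 genes of most similar profile. Other names are said to be chosen after their values were seen. The result of 1 gene under this rule is not reported here. Alternatives used DESeq2 1.42.0, limma-voom (limma 3.58.1), other scalings, filters and thresholds, a replicate block, the groups set by the header's identifiers, a covariate for background counts and each library left out.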

Additional observations from a re-analysis of the deposited data

How the results depend on the processing

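All 7 calls among the 9 genes were made in each of the 19 alternatives, except that the covariate for background counts left 6, without Tmprss2. Tmprss4 and Tmprss13 passed in none of the 18 and 17 alternatives that tested them (adjusted p of 0.0715 to 1 and 0.204 to 1), and no named gene changed direction. The alternative of the 3 libraries with the fewest background counts was chosen after seeing the data, as was the exon-union length.

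Over all genes, 2071 differed (797 higher in epithelium, 1274 in muscle). DESeq2 called 3531 (1582 and 1949), an adjusted p under 0.01 called 983 (404 and 579), and a term for the groups set by the header's identifiers 3178, of which 2054 were higher in muscle. Higher in epithelium were 1439 genes by library size only, 1343 when only genes averaging 2 or more in log2 CPM were tested and 1219 with the covariate for background counts. Leaving out a library gave 1169 to 2573 genes in all, 514 to 918 higher in epithelium and 570 to 1655 higher in muscle, with 1169 and 570 without epithelium replicate 3 and 514 without muscle replicate 1. The cause was not tested.

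Of the type II proteases, 1 was higher in muscle by limma-voom and by the covariate for background counts. Of the genes listed as other trypsin-like proteases, 1 was higher in epithelium by DESeq2. Kunitz-type genes higher in muscle numbered 1 at an adjusted p under 0.01 and with the covariate, and 1 to 2 when a library was left out. Serpins higher in muscle numbered 3 by library size only, 3 at an adjusted p under 0.01, 8 with the covariate and 3 to 4 when a library was left out, and 1 was higher in epithelium in the 3 libraries with the fewest background counts. Substrates and partners higher in muscle numbered 2 by library size only, 1 at an adjusted p under 0.01 and 1 to 4 when a library was left out. The cause was not tested.

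Libraries with the same replicate number did not all deviate together (correlations of 0.59, 0.73 and -0.57 over 19375 genes), and not every library correlated best with its own number, so the numbers were not taken as pairs. The fit with the replicate block called 2418 genes and 7 of the 9 (adjusted p of 0.0010 for Spint2 to 0.0359 for Tmprss2), and among the named genes it changed only the call of Mst1r (adjusted p = 0.0532).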
